A study of Mus musculus with 2 samples.

Results

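The genes described are 10 neutrophil granule and calprotectin genes: S100a8, S100a9, Camp, Ltf, Ngp, Lcn2, Mpo, Ctsg, Elane and Chil3, out of 27975 named genes with a probe on the array. They were selected on their measured ratios, because they read higher in Bcl11b-deficient than in wild-type pools of regulatory T cells on both arrays of the series. Those ratios are therefore given as a description, with no test. The array files carry Elane under the older symbol Ela2 and Chil3 under Chi3l3.

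The study compared regulatory T cells (Tregs, the CD4 T cells that carry the transcription factor Foxp3 and restrain immune responses) with and without Bcl11b, a zinc finger protein that T cell development depends on, in C57BL/6 mice. In the Cd4Cre system, Foxp3-GFP+ cells were sorted from Bcl11bF/F/Cd4Cre/Foxp3-GFP+ mice and from wild-type reporter mice. In the Foxp3Cre system, Tregs were sorted from Bcl11bF/F/Foxp3Cre mice and from wild-type mice, and the sort markers are not given in the sources used here. Each system was measured on 1 two-colour 60-base oligonucleotide array, the wild-type pool carrying the Cy3 dye and the deficient pool Cy5. Cd4Cre deletes in the whole T cell lineage from the thymic stage at which CD4 appears, CD8 T cells included, whereas Foxp3Cre deletes in cells that express Foxp3. Each wild-type pool came from 3 mice. The number of mice behind each deficient pool, the ages, and the part of Bcl11b that is deleted are not given in the sources used here. With 1 array per system and no dye swap, no value has a replicate, and dye and genotype cannot be told apart. The error printed beside a ratio is that of the scanner software's model for 1 array. It covers technical error only, and the number of arrays limits the precision.

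Neutrophils are short-lived phagocytes that pack antimicrobial proteins into granules as they mature in the bone marrow. Azurophil granules are made first, at the promyelocyte stage, and hold myeloperoxidase and serine proteases. Specific granules follow at the myelocyte stage and hold lactoferrin, cathelicidin and lipocalin, while calprotectin, the dimer of S100a8 and S100a9, fills the cytosol of the mature cell. T cells are not a usual source of these proteins.

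The 10 genes were read by 11 probes of 60 bases, 1 spot each, with Ltf read by both of its probes. The probe sequences that carry the results are shown for an alarmin subunit, for an antimicrobial peptide and for the one gene with a pair of probes. Each lies in the coding part of its transcript.
S100a8 probe, mm9 chr3:90473778-90473837: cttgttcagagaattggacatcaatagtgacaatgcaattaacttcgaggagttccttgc
Camp probe, mm9 chr9:109749992-109750051: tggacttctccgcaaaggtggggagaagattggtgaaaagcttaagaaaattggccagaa
Ltf brighter probe, mm9 chr9:110942873-110942932: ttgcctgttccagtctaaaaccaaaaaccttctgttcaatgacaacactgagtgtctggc
Ltf dimmer probe, mm9 chr9:110938264-110941314, spanning an exon junction: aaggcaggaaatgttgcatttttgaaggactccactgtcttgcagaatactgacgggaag
The Camp probe reads the stretch that encodes the released cathelicidin peptide. The other probes lay at chr3:90496585-90496644 for S100a9, chr9:110324266-110324814 for Ngp, chr2:32241037-32241281 for Lcn2, chr11:87617102-87617877 for Mpo, chr14:56718795-56718854 for Ctsg, chr10:79350763-79350822 for Elane and chr3:105950485-105950544 for Chil3, all on mm9. The probes for Ngp, Lcn2 and Mpo spanned more genome than their 60 bases, so they cross a junction too.

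Levels are log2 normalized signals of 1 channel and cannot be compared between genes, since each probe has its own brightness. Ratios are log2 of deficient over wild type. A gene counted as detected on an array where 1 channel or both of its probe stood well above background. In what follows, "with Cd4Cre" and "with Foxp3Cre" mean on that system's array. All 10 genes were detected with Cd4Cre, 7 in both channels and 3 (Camp, Lcn2 and Elane) in the deficient channel alone. With Foxp3Cre 9 were detected, all of them in both channels, and Elane was well above background in neither. In what follows, "above background" means well above it by the scanner's flag, and "below background" means not well above it.

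On the Cd4Cre array all 10 genes read at least 2-fold higher in the deficient pool, where 11.4% of the 15873 detected genes did. Their median log2 ratio was 4.91 and they ran from 1.18 for Elane to 7.02 for S100a9, beside a median of -0.05 over all detected genes. With the 3 genes read in only 1 channel set at their lower bound, 9 reached 2-fold and Elane did not. On the Foxp3Cre array 9 genes read at least 2-fold higher, where 2.93% of the 15184 detected genes did, with a median of 1.94 and a range from 1.35 to 2.41, beside -0.08 over all detected genes. The same 9 genes passed 2-fold on both arrays, where 1.34% of the 14372 genes detected on both did. The rule used these contrasts, so nothing is read from the counts.

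**Figure D1:**
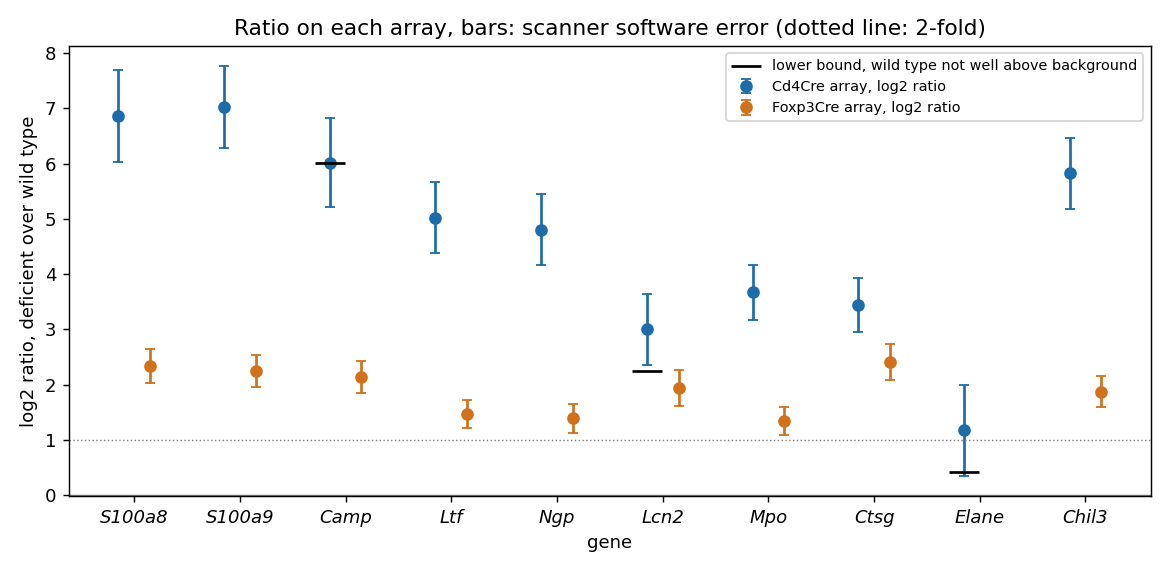
Log2 ratio of deficient over wild type (vertical axis) for each gene (horizontal axis) on the Cd4Cre and Foxp3Cre arrays, with bars of 1 scanner software error for a single array. For the 9 genes detected on both arrays, the Cd4Cre value lies above the Foxp3Cre value, with S100a9 at 7.02 and 2.25.

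Calprotectin gave the highest ratios of the Cd4Cre array. S100a9, the subunit that stabilises the dimer, had a log2 signal of 10.44 in the Cd4Cre wild-type pool, 17.46 in the Cd4Cre deficient pool, 14.55 in the Foxp3Cre wild-type pool and 16.80 in the Foxp3Cre deficient pool. Both deficient pools were higher than both wild-type pools, and the wild-type pools lay much further apart than the deficient pools. S100a9 was thus 129-fold higher in the deficient pool with Cd4Cre, the highest ratio of all detected genes there (log2 ratio 7.02, software error 0.74), and 4.76-fold higher with Foxp3Cre (2.25, error 0.29). The scanner's mean spot intensities before any correction were 1114 and 203635 with Cd4Cre and 17354 and 228467 with Foxp3Cre, wild type first in each pair. No spot was marked as saturated, and the local background of the 11 probes lay between 32.5 and 84 units.

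S100a8, the partner subunit, had log2 signals of 8.08 and 14.94 in the wild-type and deficient Cd4Cre pools and of 12.46 and 14.79 in the Foxp3Cre pools. It was 116-fold higher in the deficient pool with Cd4Cre (log2 ratio 6.86, error 0.83) and 5.04-fold higher with Foxp3Cre (2.33, error 0.31). Like S100a9, it was low in 1 pool of the 4, the Cd4Cre wild-type pool, and the deficient pools were close to each other. The S100a8 and S100a9 probes lie 22.75 kb apart on chromosome 3.

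Among the specific granule genes, Camp, the cathelicidin precursor, had log2 signals of 7.84 in the Cd4Cre wild-type pool, where it was not well above background, 13.85 in the Cd4Cre deficient pool, and 11.16 and 13.30 in the wild-type and deficient Foxp3Cre pools. Camp was at least 64.4-fold higher in the deficient pool with Cd4Cre, with the measured ratio at 6.01 (error 0.81), and 4.42-fold higher with Foxp3Cre (2.14, error 0.30). Both deficient pools again exceeded both wild-type pools.

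Ltf, the iron-binding lactoferrin, had signals on its brighter probe of 7.97 and 12.99 in the wild-type and deficient Cd4Cre pools and of 11.23 and 12.70 in the Foxp3Cre pools. The 2 probes of Ltf gave ratios of 5.02 (error 0.64) and 3.90 (error 0.53) with Cd4Cre, and of 1.47 (error 0.25) and 1.05 (error 0.23) with Foxp3Cre. The probes had the same direction on each array, and the brighter probe gave the higher ratio on both.

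Ngp, neutrophilic granule protein, read 7.98 and 12.78 in the wild-type and deficient Cd4Cre pools and 9.43 and 10.82 in the Foxp3Cre pools. It was 28.0-fold higher with Cd4Cre (error 0.64) and 2.63-fold higher with Foxp3Cre (error 0.26). Ngp was the one gene whose deficient pools lay more than 2-fold apart, the Foxp3Cre pool being lower.

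Lcn2, the siderophore-binding lipocalin, read 6.79 in the Cd4Cre wild-type pool, not well above background, and 9.80 in the deficient pool there, against 8.36 and 10.30 in the Foxp3Cre pools. It was at least 4.73-fold higher with Cd4Cre and 3.83-fold higher with Foxp3Cre (1.94, error 0.33). As with Camp, its Cd4Cre value is a bound, so the gap between its ratios on the arrays is not measured exactly.

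The 4 specific granule genes had a median ratio of 4.91 with Cd4Cre and 1.70 with Foxp3Cre. Camp, Ngp and Ltf lie in that order on chromosome 9, with 574.2 kb between the Camp and Ngp probes and 618.1 kb between those of Ngp and Ltf.

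The 3 azurophil granule genes had the lowest median ratio of the members' roles with Cd4Cre, 3.45, and the 2 detected with Foxp3Cre had a median of 1.88 there. Mpo, the myeloperoxidase that makes hypochlorous acid, had log2 signals of 8.20 and 11.87 in the wild-type and deficient Cd4Cre pools and of 9.83 and 11.18 in the Foxp3Cre pools. It was 12.7-fold higher in the deficient pool with Cd4Cre (3.67, error 0.49) and 2.55-fold higher with Foxp3Cre (1.35, error 0.25). Ctsg, the serine protease cathepsin G, read 8.05 and 11.49 in the Cd4Cre pools and 9.22 and 11.63 in the Foxp3Cre pools. It was 10.9-fold higher (3.45, error 0.49) and 5.31-fold higher (2.41, error 0.33). Among all detected genes Ctsg was in place 49 with Cd4Cre and in place 9 with Foxp3Cre, where it ranked above every other member.

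Elane, neutrophil elastase, stood apart from the other members. Its log2 signal was 6.79 in the Cd4Cre wild-type pool and 7.97 in the deficient pool, the one pool of the 4 in which its probe was well above background. The ratio of 1.18 had an error of 0.82, and as a bound Elane was at least 1.33-fold higher there. With Foxp3Cre its mean intensities were 138.2 in wild type and 328.0 in deficient, both not well above background, so no fold is given. Its selection as higher on both arrays therefore does not rest on a measured level in the Foxp3Cre pools. Prtn3, the proteinase 3 gene of the same protease cluster, whose probe lies 6.078 kb from that of Elane on chromosome 10, was below background in all 4 pools.

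Chil3, a chitinase-like lectin (Ym1) of immature neutrophils and of alternatively activated macrophages, is a secreted protein whose expression is thus not limited to neutrophils. Its log2 signal was 9.15 and 14.97 in the wild-type and deficient Cd4Cre pools and 13.22 and 15.10 in the Foxp3Cre pools. Chil3 was 56.5-fold higher in the deficient pool with Cd4Cre (5.82, error 0.65) and 3.67-fold higher with Foxp3Cre (1.88, error 0.28). Chil3 and Chil4 are near-identical copies, and how far the Chil3 probe also reads Chil4 RNA was not tested.

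**Figure D2:**
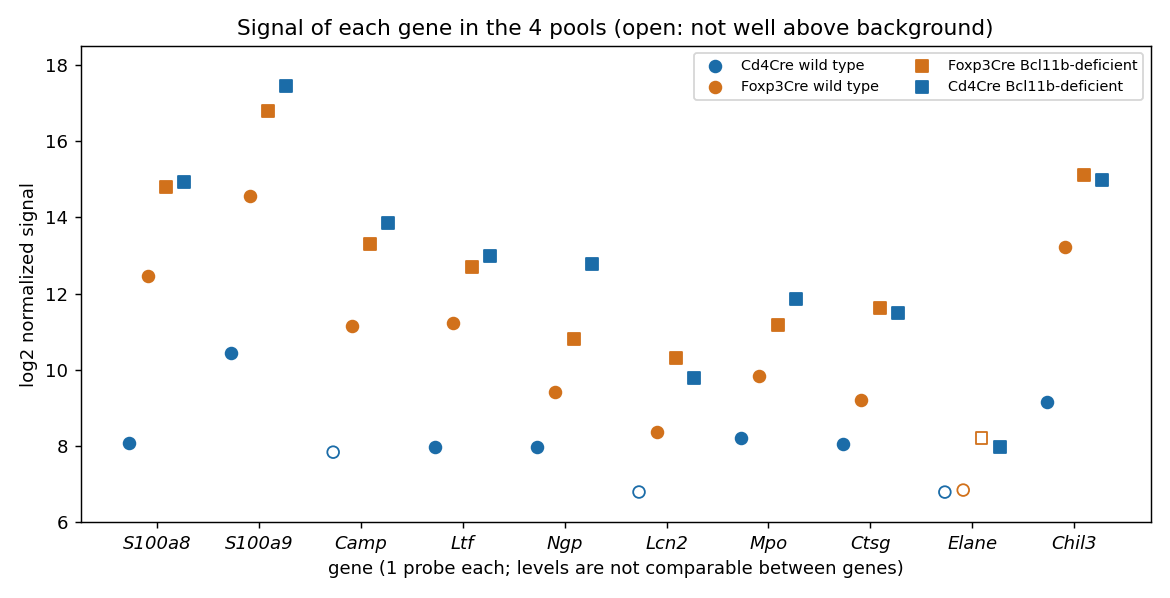
Log2 normalized signal (vertical axis) of each gene (horizontal axis) in the 4 pools, with open symbols where the probe was not well above background. For the 9 genes other than Elane, the Cd4Cre wild-type pool is lowest, the Foxp3Cre wild-type pool next and both deficient pools highest, as for S100a8 at 8.08, 12.46, 14.79 and 14.94.

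The plot of signals by pool shows that, Ngp and Elane aside, the wild-type pools more than the deficient pools set the members' ratios on the arrays apart. For Ngp the wild-type pools differed by 1.45 and the deficient pools by -1.96, as Foxp3Cre minus Cd4Cre. Over the 9 members above background in at least 3 pools, the order of the pools was the same at the low end: Cd4Cre wild type, then Foxp3Cre wild type, then the deficient pools. The Cd4Cre deficient pool was the highest for 6 of them and the Foxp3Cre deficient pool for 3 (Lcn2, Ctsg and Chil3). Of the members, 7 were above background in both wild-type pools, and all 7 were at least 2-fold higher in the Foxp3Cre than in the Cd4Cre wild-type pool, where 9.65% of 14122 genes were, and 0 were 2-fold lower, where 9.16% were. Their median difference was 3.26, from 1.18 for Ctsg to 4.38 for S100a8, beside 0.07 over all genes. In folds this was 20.8 for S100a8, 17.2 for S100a9, 16.8 for Chil3, 9.57 for Ltf, 3.09 for Mpo, 2.73 for Ngp and 2.26 for Ctsg. Camp was at least 9.97-fold higher in the Foxp3Cre wild-type pool and Lcn2 at least 1.75-fold.

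Between the deficient pools, 0 of 9 members were at least 2-fold higher with Foxp3Cre, where 10.5% of 12632 genes were, and 1 (Ngp, at -1.96) was at least 2-fold lower, where 14.3% were. The median difference was -0.29, beside -0.12 over all genes. S100a8 differed by -0.15, Chil3 by 0.13, Ctsg by 0.14, Ltf by -0.29, Lcn2 by 0.50, Camp by -0.55, S100a9 by -0.66 and Mpo by -0.69. These are single pools on arrays that differ in slide, scan and software version, so pool, array and Cre system cannot be told apart, and the wild-type level is also the denominator of the ratios that chose the members.

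**Figure D3:**
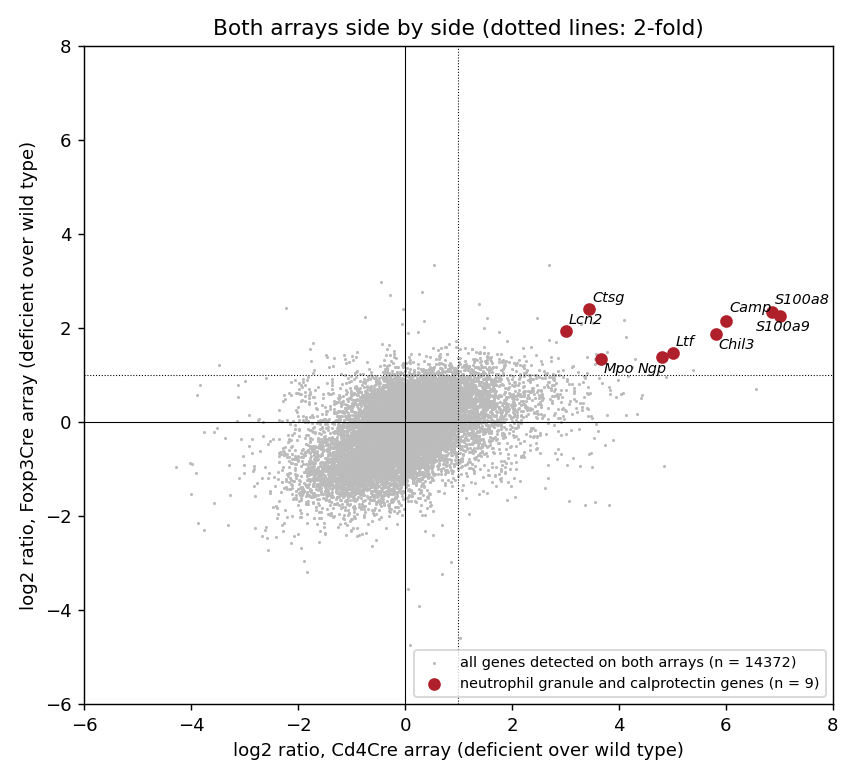
Log2 ratio with Cd4Cre (horizontal axis) against that with Foxp3Cre (vertical axis) for genes detected on both, with 9 members marked. They lie between 1.35 and 2.41 on the vertical axis but between 3.00 and 7.02 on the horizontal axis.

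By rank among all detected genes, 9 members were within the 100 highest ratios of the Cd4Cre array and 8 within those of the Foxp3Cre array. The Cd4Cre places of Camp, Lcn2 and Elane rest on a wild-type signal not well above background, and the bound for Lcn2 is a log2 ratio of 2.24 beside the measured 3.00. On the Cd4Cre array S100a9 was first, S100a8 second, Camp in place 4, Chil3 in place 5, Ltf in place 7 and Ngp in place 10. Mpo was in place 34, Lcn2 in place 99 and Elane in place 1389. On the Foxp3Cre array S100a8, S100a9 and Camp held places 11, 12 and 18, Lcn2 and Chil3 places 25 and 29, and Ltf, Ngp and Mpo places 66, 91 and 113. S100a9, S100a8 and Camp, the highest members with Cd4Cre, thus came just behind Ctsg among the members with Foxp3Cre.

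The targeted gene and some T cell markers were read beside the members. For the targeted gene, Bcl11b, the deficient pools were the lower ones, with ratios of -2.46 and -1.82 on its brighter probe and -1.19 and -0.32 on its other probe, and whether either lies in the deleted part is not given in the sources used here. Foxp3 read -3.57 with Cd4Cre and -0.20 with Foxp3Cre, with wild-type log2 signals of 12.50 and 10.02. Cd8a, a marker of the CD8 lineage, read 2.56 and 0.08, with wild-type signals of 10.09 and 12.22. The Foxp3Cre wild-type pool, in which the members were higher than in the Cd4Cre wild-type pool, thus had less Foxp3 signal and more Cd8a signal than that pool. The defining T cell markers Cd3e, Cd4 and Foxp3 were above background in all 4 pools. Il2ra, the gene of the interleukin receptor chain CD25 that Tregs carry, read -2.86 with Cd4Cre and -0.37 with Foxp3Cre on its brightest probe. Its other 3 probes read from -1.95 to -0.97 with Cd4Cre and from -0.10 to 0.55 with Foxp3Cre. The probes at -1.95 and -0.97 were above background in wild type alone, and as bounds were at least 3.72-fold and 1.48-fold lower. The part of cell composition in the members' values was not tested, and in bulk pools more cells of a type cannot be told apart from more RNA per cell.

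A further 62 neutrophil genes in 8 lists, 60 of them with a probe, were read beside the members. Of 52 detected with Cd4Cre, 24 were at least 2-fold higher and 1 lower, where 11.4% and 10.6% of all detected genes were. Their median ratio was 0.89. Of 48 detected with Foxp3Cre, 11 were at least 2-fold higher and 0 lower, where 2.93% and 11.5% of all were. Their median was 0.46. Both arrays had 7 of them at least 2-fold higher, where 1.34% of genes detected on both were: Clec4d, Clec5a, Fpr2, Mmp8, Ms4a3, Retnlg and Trem3. The same shares of all detected genes stand beside the counts of the single lists below, those of other cells included. Ly6g, the surface antigen that defines mouse neutrophils, and Cebpe, the factor of specific granule formation, had no probe under these names. Csf3r, the receptor for G-CSF, read 0.63 with Cd4Cre and 0.10 with Foxp3Cre, where it was above background in wild type alone.

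Among other azurophil granule genes, 3 of 5 detected were at least 2-fold higher with Cd4Cre: Lyz2 (lysozyme, 3.58), Ms4a3 (a marker of granulocyte and monocyte precursors, at least 4.06-fold) and Cd63 (1.20). With Foxp3Cre it was 2 of 5: Ms4a3 (at least 4.22-fold) and Srgn (the granule proteoglycan serglycin, 1.11). Lyz2, also abundant in macrophages, read -0.04 with Foxp3Cre, and 1.27 there when the array was centred on its median without loess. Its wild-type log2 signals were 14.27 and 16.70, so it was higher in the Foxp3Cre wild-type pool as the members were.

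Of 8 further specific or gelatinase granule genes detected with Cd4Cre, 5 were at least 2-fold higher: Hp (haptoglobin, 3.82), Slpi (a leukocyte protease inhibitor, 1.89), Mmp25 (a membrane metalloproteinase, 1.64), Mmp8 (neutrophil collagenase, at least 2.64-fold) and Itgam (CD11b, at least 2.01-fold). On the Foxp3Cre array 1 of 7 was, Mmp8, at least 3.75-fold higher. For Slpi the 2 probes disagreed with Cd4Cre, at 0.00 and 1.89. Olfm4 and Fcnb were below background in every pool.

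Of 6 NADPH oxidase genes, which make the respiratory burst, 3 were at least 2-fold higher with Cd4Cre, Cybb (1.62) and Ncf1 (1.34) among them, and 0 with Foxp3Cre, where the median was -0.19. Of 11 receptor genes detected on each array, 7 were at least 2-fold higher with Cd4Cre and 6 with Foxp3Cre, with medians of 1.23 and 1.02, the nearest of any list on the arrays. The formyl peptide receptor gene Fpr2 read 2.69 and 1.74, and the C-type lectin receptor genes Clec4d and Clec5a had lower bounds of 3.84-fold and 6.59-fold with Cd4Cre and read 1.25 and 1.29 with Foxp3Cre. Trem3 was at least 2.53-fold higher and read 1.02.

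Clec4e (at least 10.1-fold), Fcgr4 (1.23) and Cxcr2 (1.04) passed 2-fold with Cd4Cre, and Fpr1 (1.36) and Il1r2 (1.06) with Foxp3Cre. The probes of Clec5a ran from 0.14 to 2.73 with Cd4Cre and from -0.10 to 1.29 with Foxp3Cre. Those of Cxcr2 ran from -0.08 to 1.04 and those of Cybb from 0.72 to 1.62, both with Cd4Cre. Those of Fpr2 ran from 0.95 to 1.74 with Foxp3Cre. These calls thus rest on 1 probe each.

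Of 6 granulocyte transcription factor genes with Cd4Cre, Cebpd (2.74) was at least 2-fold higher, and Gfi1, a repressor needed for neutrophil formation, read -0.77. With Foxp3Cre 0 of 5 were. Of the granule protease inhibitors, Serpinb1a, which inhibits elastase, read 2.33 with Cd4Cre and 0.63 with Foxp3Cre, and Stfa1 was at least 1.64-fold higher with Cd4Cre.

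Among cytosolic and secreted products, Retnlg, a resistin-like protein of neutrophils, was at least 14.3-fold higher with Cd4Cre and read 2.17 with Foxp3Cre. Alox5ap, needed for leukotriene synthesis, read 2.83 and 0.55, and Il1b read 1.70 and 0.96. Of the receptors to which calprotectin binds or their partners, Cd14 read -1.05 and 0.52, Ly96 (MD-2) read 0.83 and 1.20, Tlr4 was below background with Cd4Cre, and Ager was so with Foxp3Cre.

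**Figure D4:**
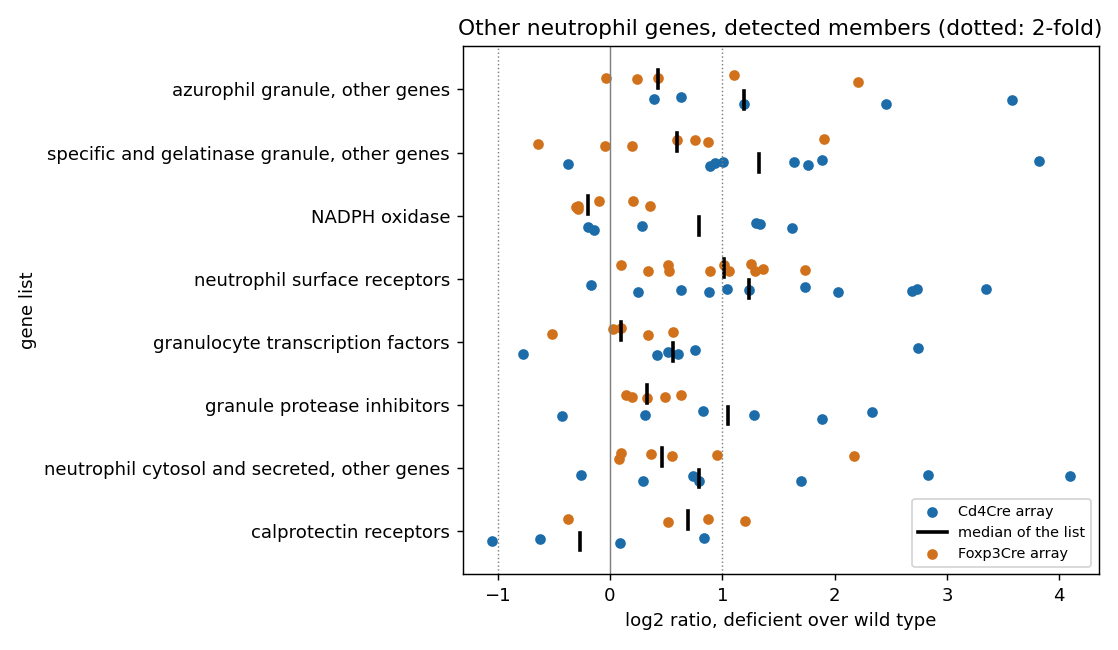
Log2 ratio of deficient over wild type (horizontal axis) of the detected genes of each list (vertical axis) on the 2 arrays, with bars at the list medians and dotted lines at 2-fold. The 10 members are not drawn, and the receptor genes have medians of 1.23 (Cd4Cre) and 1.02 (Foxp3Cre).

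The other neutrophil genes were also set side by side between pools. Of 38 above background in both wild-type pools, 4 were at least 2-fold higher in the Foxp3Cre pool and 6 lower, beside 9.65% and 9.16% of all genes, with a median of -0.11, from -2.29 for Cd14 to 2.43 for Lyz2, beside the members' 3.26. Between the deficient pools 0 of 44 were at least 2-fold higher with Foxp3Cre and 12 were lower, beside 10.5% and 14.3% of all genes, with a median of -0.51, from -2.09 for Clec4e to 0.56 for Mmp8. The wild-type comparison leaves out Retnlg, Clec4d, Clec4e, Clec5a, Trem3, Cd177 and Itgam, above background only in the Foxp3Cre wild-type pool. It also leaves out Mmp25, Spi1, Cxcl2 and Ager, above background only in the Cd4Cre wild-type pool. The members' 3.26 leaves out Camp and Lcn2 in the same way as Retnlg. No test of the difference from the members was made.

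Markers of other cells were read in the same pools, each list by the sum of its linear normalized signals. The T cell list summed to 488183 in wild type and 268454 in deficient with Cd4Cre, and to 353381 and 291219 with Foxp3Cre. Cd5, the brightest gene of the list in both wild-type pools, weighs most in these drops. Its log2 signal went from 17.85 to 16.16 with Cd4Cre and from 17.36 to 16.11 with Foxp3Cre. Cd3d and Cd3g, bright as well, read -0.34 and -0.23 with Cd4Cre, and 0.23 and 0.33 with Foxp3Cre. The 6 genes of the T cell list had medians of -1.03 and -0.13. With Cd4Cre, Cd4 (-1.13), Cd5 (-1.70) and Foxp3 were at least 2-fold lower, where 10.6% of detected genes were. With Foxp3Cre, Cd5 (-1.25) was, where 11.5% of detected genes were. The probes of a gene differed with Foxp3Cre. Cd3e read -0.05 on its brightest probe and -2.03 on its other probe, and Cd4 read -0.52 and -1.05. With Cd4Cre the other probes read -0.89 for Cd3e and -1.50 for Cd4.

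The monocyte and macrophage list, detected with all 10 genes on each array, moved in both directions with Cd4Cre, with Lyz2, Cx3cr1 (2.22) and Ccr2 (1.37) at least 2-fold higher and 4 genes at least 2-fold lower, Csf1r (-1.51), Mertk (-1.84) and Cd14 among them. On the Foxp3Cre array Ccr2 (1.17) was higher and Csf1r (-1.20) lower. Its sum went from 74260 to 274483 with Cd4Cre and from 136344 to 142276 with Foxp3Cre. The rise with Cd4Cre is mainly that of Lyz2, whose log2 signal went from 14.27 to 17.85. With Cd4Cre, 4 of the 10 genes read above 0. The probes of Cx3cr1 ran from 0.29 to 2.22 with Cd4Cre. Those of Csf1r ran from -1.51 to -0.57 with Cd4Cre and from -1.285 to -0.06 with Foxp3Cre. Not every probe of these genes thus passed 2-fold. The list's medians were -0.31 and 0.33, and with Foxp3Cre 6 of the 10 read above 0.

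The B cell list had 4 of 5 genes detected and summed to 22629 and 63263 with Cd4Cre, with Ms4a1 (2.03) and Cd79b (1.23) at least 2-fold higher, and to 69971 and 69918 with Foxp3Cre. The dendritic list of 6 summed to 5089 and 17834 with Itgax (2.04), Siglech (1.38) and Cd209a (at least 2.03-fold) higher, and to 7421 and 7965 with Foxp3Cre with Cd209a (1.38) higher. Both list sums were thus higher in the deficient than in the wild-type pool with Cd4Cre, and nearly level with Foxp3Cre. The dendritic rise with Cd4Cre is mainly that of Itgax, whose log2 signal went from 11.83 to 13.87. On their brightest probes Flt3 (0.80), Zbtb46 (0.61) and Xcr1 (0.10, above background in wild type alone) did not pass 2-fold there.

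The mast cell and basophil list, with 5 of 8 genes detected on each array, went the other way round. With Foxp3Cre all 5 had measured ratios past 2-fold: Cma1 (2.14), Cpa3 (at least 5.40-fold), Mcpt4 (at least 5.08-fold), Prss34 (at least 2.02-fold) and Mcpt8 (at least 1.70-fold, with the measured ratio at 1.39), and the sum went from 1279 to 4286. On the Cd4Cre array Prss34 alone passed, at least 2.34-fold higher, and the sum went from 2159 to 2604. The eosinophil list had Siglecf and Epx below background in all pools, Prg2 at 1.35 and 1.33, Ear1 at 1.78 with Cd4Cre, and Ccr3 at -1.47 and 1.43, with sums of 5415 and 5143 and of 4525 and 9391.

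Progenitor markers Kit (2.38) and Cd34 (at least 1.49-fold) were higher with Cd4Cre and Cd34 (1.56) with Foxp3Cre. Of this list of 6, 4 genes were detected with Cd4Cre and 3 with Foxp3Cre. Flt3 read 0.80 and 0.009. Hlf, above background with Cd4Cre in wild type alone, read -0.30 there. Gata2 and Mycn were not well above background in any pool. The list sums went from 1539 to 4084 and from 1672 to 2476. The rise with Cd4Cre is mainly that of Kit, whose log2 signal went from 9.02 to 11.41. The platelet gene Pf4 was at least 1.94-fold higher and read 2.51, while the other detected platelet genes read -0.33 (Itga2b) and -0.73 (Gp1bb) with Cd4Cre and -0.09 (Gp1bb) with Foxp3Cre. Ppbp and Gp9 were below background in all pools, with list sums from 1001 to 1069 and from 1122 to 2188. Of erythroid genes 0 passed 2-fold, and the list summed to 10224 and 16660 and to 34452 and 50505. The part of these cells in the members' values was not tested.

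Of 14363 genes measured on both arrays, the 5 nearest to the median of 9 members (each gene centred on its own mean over the 4 pools, by Euclidean distance on the log2 scale over 4 pools) were Retnlg at 0.755, Ifitm6 at 1.16, Plac8 at 1.26, Chil4 at 1.30 and Wfdc21 at 1.37. Retnlg had log2 signals of 7.30 and 11.39 in the wild-type and deficient Cd4Cre pools and of 9.58 and 11.75 in the Foxp3Cre pools. Ifitm6, an interferon-induced transmembrane gene, read 4.30 and 1.34. Plac8 read 4.03 and 0.59, with wild-type signals of 12.58 and 15.23. Chil4, the neighbour and near-identical copy of Chil3, was at least 9.71-fold higher with Cd4Cre and read 2.10 with Foxp3Cre. Whether their probes separate these copies was not tested. Wfdc21 was at least 11.4-fold higher and read 2.11.

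The members' chromosomal neighbours, taken as 2 protein-coding genes to each side in the GRCm38.p6 order, had medians near those of all genes. Of 36 that are not members, 34 had a probe, and 22 were detected with Cd4Cre with a median of -0.12 and 2 at least 2-fold lower, against 10.6% of all detected genes. Against 11.4% of all, 3 were at least 2-fold higher: S100a6 (1.86), Cdc25a (1.15) and Chil4. With Foxp3Cre 23 were detected, also with a median of -0.12 and 4 at least 2-fold lower, against 11.5% of all. Against 2.93% of all, 3 were at least 2-fold higher: Chil4 and the mast cell protease genes Mcpt4 and Mcpt8, which lie beside Ctsg. Cdc25a, next to Camp, read -1.14 there. Scap, near Ngp, read -1.50 and -1.17, and Chia1, next to Chil3, read -4.74 with Foxp3Cre, where it was above background in both channels. S100a7a, next to S100a8, was below background in all pools.

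Promoter sequence was examined for the 250 bases before each start in the RefSeq table on GRCm38.p6, in which all 10 members had 1 window. A motif of C/EBP factors (TTNNGNAA) and one of PU.1 (GAGGAA), factors known to act on granule genes, were searched on both strands. Of the members 6 held the C/EBP letters (S100a8, S100a9, Ltf, Ngp, Lcn2 and Chil3), as did 36.9% of 32851 promoter windows of the same length. Likewise 6 held the PU.1 letters (S100a8, Ltf, Lcn2, Mpo, Ctsg and Elane), as did 23.2% of all windows. A RUNX motif (TGTGGT, in 14.1% of windows) was in S100a9 and Ctsg, and TATAAA (in 12.4%) in S100a8 and Ctsg. The 3 azurophil genes held PU.1 letters and no C/EBP letters, and Camp held none of the 4 motifs. The sequences shown are 1 of each kind: a calprotectin gene with both motifs, a specific granule gene with C/EBP letters alone, and an azurophil gene with PU.1 letters alone. Capitals mark the C/EBP and PU.1 matches on either strand, and overlaps between them were allowed.
S100a8, chr3:90668821-90669070, plus strand: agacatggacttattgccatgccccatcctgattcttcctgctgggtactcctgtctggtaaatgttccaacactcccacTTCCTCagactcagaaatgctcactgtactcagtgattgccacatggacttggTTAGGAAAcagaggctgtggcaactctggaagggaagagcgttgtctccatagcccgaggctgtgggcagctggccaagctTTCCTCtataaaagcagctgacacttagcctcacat
Ngp, chr9:110419558-110419807, plus strand: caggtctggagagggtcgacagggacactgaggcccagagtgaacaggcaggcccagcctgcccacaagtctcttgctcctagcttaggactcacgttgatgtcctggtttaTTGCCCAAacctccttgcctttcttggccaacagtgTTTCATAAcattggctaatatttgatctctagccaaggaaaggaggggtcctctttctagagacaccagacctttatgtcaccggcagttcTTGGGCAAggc
Elane, chr10:79886062-79886311, plus strand: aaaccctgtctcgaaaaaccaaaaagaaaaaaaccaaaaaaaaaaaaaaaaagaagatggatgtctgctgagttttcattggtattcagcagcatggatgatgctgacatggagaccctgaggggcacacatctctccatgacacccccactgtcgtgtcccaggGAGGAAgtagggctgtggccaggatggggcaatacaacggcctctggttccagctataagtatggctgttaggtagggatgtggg
The C/EBP letters of S100a8 start 117 bases before the start of transcription and its PU.1 letters 170 and 36 bases before it. Ngp held the C/EBP letters 138, 102 and 11 bases before its start, and Elane the PU.1 letters 85 bases before its start. A match is a description of letters in a window, and its relation to the measured ratios was not tested.

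The processing moved some members' values more than others. Over the alternative settings and the one used, the Cd4Cre ratio of S100a9 lay between 6.85 and 7.60, of S100a8 between 6.39 and 8.25, of Camp between 5.45 and 8.02 and of Lcn2 between 2.31 and 5.97. On the Foxp3Cre array S100a9 lay between 2.19 and 3.36, S100a8 between 2.30 and 2.94 and Mpo between 1.32 and 1.59. Every member other than Elane was at least 2-fold higher under each setting in which it had a value. Elane ran from 0.78 to 3.14 with Cd4Cre and passed 2-fold in 8 of 9.

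**Figure D5:**
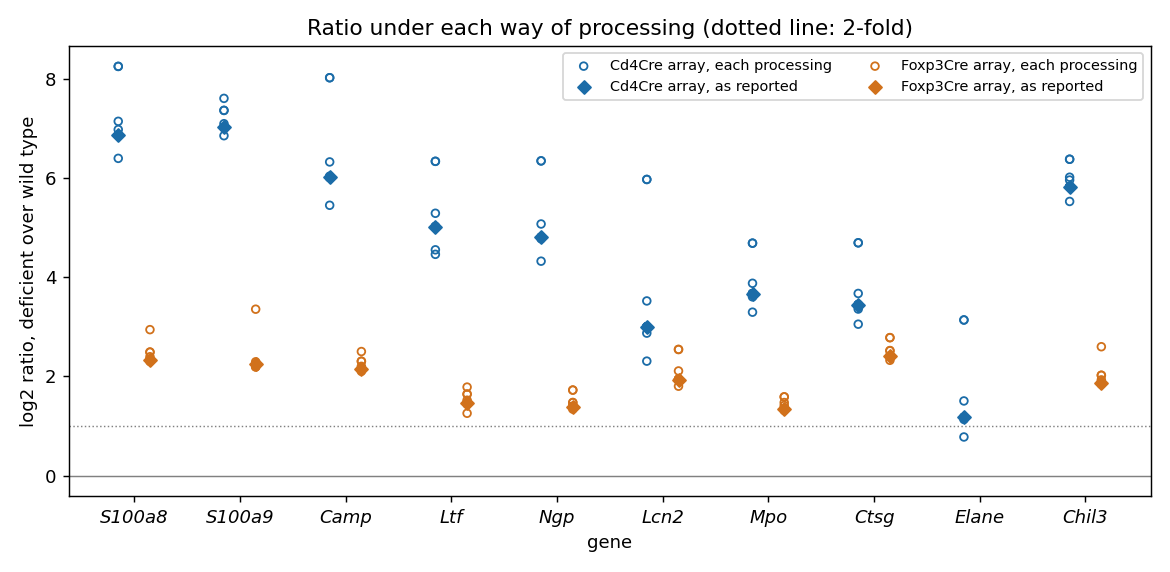
Log2 ratio of deficient over wild type (vertical axis) of each gene (horizontal axis) under the setting used and under each alternative, on the Cd4Cre and Foxp3Cre arrays, with a dotted line at 2-fold. Elane, from 0.78 to 3.14 with Cd4Cre, is the one member that falls under the line.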

How the data were processed

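Per the labels, RNA of the sorted cells was amplified and dye-coupled with a Kreatech ULS kit. Per the file headers, the scans went through Agilent Feature Extraction, in version 10.5.1.1 (Cd4Cre) or 10.7.3.1 (Foxp3Cre), and the submitters' processing notes name 10.5.1. The authors' deposited scanner files give spot and local background intensity per channel, flags, and a log10 ratio of Cy5 to Cy3 from the software, with an error. The deposited value table holds the same log10 ratio (largest difference 0, median 0 on each array). The first array is taken as the Cd4Cre array because its labels name the Foxp3-GFP reporter, which the series' design gives for those mice.

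From the deposited intensities, limma 3.58.1 under R 4.3.3 applied normexp (offset 50) and loess per array (weight 0 for control spots). Outlier-flagged spots (137 and 155 of 43379) were dropped and a probe's spots averaged. Repeated spots of 245 probes had a median SD of 0.056 and 0.071 (log2). Per-channel log2 signals followed loess and Aquantile normalization. The brightest probe stood for its gene. Probes were named through a RefSeq table of GRCm38.p6: of 41174 probes, 24844 were matched on accession, 6045 on symbol and 1810 on a synonym, while 8475 kept the file's name. Probe positions are those of the files (mm9). For a gene above background in 1 channel only, a bound divides the bright signal by the dim one, or by the dimmest signal well above background in the dim channel where that is higher. Such bounds are open to dye bias. The steps were tested on simulated data.

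The members and gene lists were chosen with earlier results of these data known. The text names all members, listed genes at least 2-fold changed on either array, Ly6g, Csf3r, Cebpe and Prtn3, and the 5 genes nearest to the members' pattern; the genes used to check the labels, and which neighbours are named, were chosen after their values were seen. A few of these enter the counts only and are not reported here. No test was made, since each system has 1 array. Alternatives were other background corrections, offset 10, the scanner's ratio, median centring, the value table, the mean over probes, other filters on dim probes, flagged spots kept and 3-fold; those for the difference between deficient pools were chosen after seeing the data.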

Additional observations from a re-analysis of the deposited data

Results flagged for a closer look

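Among the neutrophil genes outside the 10 members that were at least 2-fold higher or lower on either array, 5 read in opposite directions in the 2 Cre systems. With Cd4Cre first and Foxp3Cre second, Cd14 had log2 ratios of -1.05 and 0.52. Fpr1 read -0.17 and 1.36. Itgam read 1.01 and -0.042, Lyz2 read 3.58 and -0.038, and Ncf1 read 1.34 and -0.30. The Foxp3Cre value of Lyz2 was above 0 with median centring, so its direction there depends on the processing. With 1 array in each system, the difference between the systems was not tested for any of these genes, and the values -0.17, -0.042 and -0.038 lie within 1 software error of 0. No member read in opposite directions on the arrays.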

How the results depend on the processing

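No paired analysis was possible because each Cre system has 1 array and the labels give no shared replicate numbers. No result that was past 2-fold under the setting used changed direction. Lyz2 with Foxp3Cre, not past 2-fold under that setting, did change direction with median centring and passed 2-fold there. The members' median on the Cd4Cre array was 6.34 with the scanner's ratio and with the deposited value table, against 4.91, and on the Foxp3Cre array 2.50 with median centring, against 1.94. The wild-type pools differed by 4.52 with the scanner's processed signal, against 3.26, and by 2.80 to 3.48 otherwise, while the deficient pools differed by -0.40 to -0.07. Members at least 2-fold higher numbered 7 to 10 on the Cd4Cre array, 6 to 10 on the Foxp3Cre array and 6 to 10 on both, with 6 at 3-fold. Other neutrophil genes at least 2-fold higher numbered 15 on the Cd4Cre array with both channels above background, against 24, and on the Foxp3Cre array 4 at 3-fold and 19 with median centring, against 11. Of the members' single values 140 moved by less than 1 software error and 28 by more, and of the other named genes' 440 and 70. The cause was not tested. Signal over background limits Camp, Lcn2 and Elane, whose Cd4Cre wild-type signals were not well above it.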
